A study of Mus musculus with 24 samples.

Results

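Transcripts of the translation initiation factors and of the aminoacyl-tRNA synthetases were described in the exorbital lacrimal glands of female mice with autoimmune disease, with the 2 classes kept apart. A gene was a member if its array symbol began with Eif (the Eif2ak kinases left out), if it was Eprs, Farsa or Farsb, or if the symbol was 1 capital letter followed by ars, with or without a closing 1 or 2. The rule reads symbols and no signal. It gave 69 of the 14182 named genes on the 2 array platforms, of which 41 were initiation factors and 28 were synthetases. CodeLink (CL) arrays carried 59 member probes for 57 of these genes, and Affymetrix (Affy) arrays carried 142 member probe sets for 64 of them.

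The glands came from 2 strains treated with placebo (P) or testosterone (T). MRL/lpr mice, which carry the lpr mutation of the Fas death receptor in every cell, were pooled 6 to a sample. NOD mice, a strain with spontaneous autoimmunity, were pooled 2 to 4 to a sample. The sample labels give 18 days of treatment for MRL/lpr and 21 days for NOD, but the study's methods give 1 common duration for both strains, and which is right is not known here. Each of the 4 groups held 3 pools, and every pool was run on both platforms, which gives 24 arrays. By the study's methods, NOD mice were older than MRL/lpr mice when treatment began. Strain was thus joined to age, to pool size and, if the labels hold, to treatment time. The part of each in a strain difference cannot be told apart. P-values measure the spread between pools of mice.

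An aminoacyl-tRNA synthetase joins an amino acid to its own tRNA and so supplies the ribosome with charged tRNA. The initiation factors bring the initiator tRNA, the small ribosomal subunit and the capped mRNA together at the start codon, and they are the step at which cells most often set the rate of protein synthesis. In secretory glands such as the lacrimal gland, whose acinar cells export large amounts of protein, both classes work at a high rate. When tRNAs are left uncharged, the kinase Gcn2 phosphorylates eIF2, general initiation slows, and the transcription factor Atf4 is made and switches on genes for amino acid synthesis and for many cytosolic synthetases.

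Signals are arbitrary units. CL values were divided by each array's median by the authors, and Affy values were scaled here to a trimmed mean of 500 per array. Changes are log2 differences between group means with the standard error (SE) after ±. A change was called at an adjusted p under 0.05 (limma, Benjamini-Hochberg over the 13614 CL probes or 17891 Affy probe sets tested), and only called changes are written as a rise or a fall. Between 47.2% and 61.0% of CL spots per array lay near background, and 28.5% to 42.0% of Affy signals lay at or below the floor of 70.5. Within groups, pools correlated at 0.915 to 0.977 on CL and 0.911 to 0.987 on Affy. On Affy, NOD T pool 1 stood apart from the other NOD T pools. MRL/lpr P pool 1 stood apart in salivary gland markers, whose summed Affy signal was 180400 there against 286 to 383 in the other MRL/lpr P pools. Values without each of these pools are given where they change a result.

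The cell mixture also moved with T. Among 11 leukocyte markers, 10 rose in NOD on Affy and 9 on CL, and their summed Affy signal went from 6077 to 6919 in the NOD P pools to 23370 to 35950 in the NOD T pools. In MRL/lpr the same list had 3 falls on Affy and 5 on CL. Summed plasma cell markers in MRL/lpr were 30290 to 38400 under P and 21400 to 25050 under T on Affy and 200.1 to 348.2 and 137.5 to 164.5 on CL, where 1 of 2 fell. On CL, 2 of 7 acinar and epithelial markers fell in MRL/lpr, with sums of 393.7 to 445.7 and 328.1 to 355.8. Acinar and epithelial markers had 4 falls and 1 rise among 9 on Affy in NOD, with summed signals of 88860 to 102900 under P and 46910 to 69850 under T, whereas on CL 1 of 7 fell and the sums overlapped (215.0 to 346.0 and 277.7 to 320.6). Plasma cell, adipocyte and endothelium markers had 1 call between them with T in NOD, a fall of an adipocyte marker on CL. Of the salivary gland markers, Smr2 was the 1 that rose on Affy with T, in both strains, and their summed signal went from 159.7 to 172.2 in NOD P to 15370 to 20570 in NOD T pools. The part of these shifts in the changes below was not tested, and in whole glands fewer cells of a type and less RNA per cell cannot be told apart.

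Both classes were bright in this tissue. The median of the probes' mean signals was 20.5 for initiation factors and 4.42 for synthetases on CL, where it was 1.24 over all probes. On Affy it was 1305 and 813.8 against 137.3 over all probe sets. Only 2 initiation factor probes and 1 synthetase probe on CL, and 2 initiation factor sets on Affy, were near background on all 12 arrays. Among the 69 genes, Eif2s3y, the Y-linked copy of an eIF2 subunit, was the one with no tested probe, and its signal was near background in every pool of these female glands. The low-signal filter left 35 initiation factor and 20 synthetase probes on CL, and 87 and 46 probe sets on Affy. A probe can pass this filter through 1 group alone.

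With T in NOD, synthetase transcripts gave falls and no rises, in a larger share than all features on Affy and in a share near theirs on CL. On Affy 15 of 46 synthetase sets fell in NOD and none rose, against 3.69% of all sets that fell and 5.53% that rose. All 15 sets belonged to cytosolic synthetases, and they covered 11 genes (Aars, Cars, Eprs, Farsb, Hars, Iars, Lars, Nars, Qars, Sars and Tars). The median change over the 46 sets was -0.60, and over all sets it was 0.00. On CL, 2 of 20 synthetase probes fell in NOD (Aars and Nars) and none rose, where 8.60% of all probes fell and 7.87% rose. The CL median was -0.27, against -0.10 for all probes, and it was -0.02 when background was removed from the raw spots by normexp, with 1 probe higher and 1 lower. In 23 of 46 Affy sets every NOD T pool lay below every NOD P pool (against 12.9% of all sets), and the same held on CL in 7 of 20 probes (against 21.4% of all probes). At an unadjusted p under 0.05, limma had 22 synthetase sets lower on Affy and 3 probes lower on CL and none higher, and the methods' t-test had 19 and 7 lower and none higher. By limma at that threshold, 2229 of all 13614 CL probes were lower and 1623 higher, so the 3 of 20 are a share near theirs. The shares of all Affy sets at that threshold, and of all probes by the t-test, are not given here. After adjustment the methods' t-test called no synthetase set on Affy and 3 probes on CL.

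In MRL/lpr fewer synthetase sets were called on Affy. There 6 of 46 sets fell and 2 rose with T, where 3.58% of all sets fell and 3.32% rose. Falls were seen for Aars, Cars, Farsb (2 sets), Lars and Nars, and rises for 1 set each of Eprs and Qars. The median change was -0.15, against 0.02 over all sets. Every MRL/lpr T pool lay below every MRL/lpr P pool in 15 of 46 Affy sets and above in 3 (against 14.6% and 13.8% of all sets). The same held on CL in 3 of 20 probes and in 0 (against 17.9% and 16.9% of all probes). On CL, 1 of 20 probes fell (Rars) and none rose, beside 5.65% and 6.89% of all probes. The CL median was -0.29 in MRL/lpr, with 15 of 20 changes negative against 13 of 20 in NOD, and it was 0.07 without MRL/lpr T pool 3. The difference between strains was not tested for the class. Before scaling, the deposited Affy signals put the median of all sets at 0.62 in NOD and -0.26 in MRL/lpr, and limma called no synthetase set with T in either strain on those values. The synthetase median in NOD was then 0.06, which is -0.56 relative to all sets.

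The initiation factors gave calls in both directions. In NOD, 11 of 87 Affy sets fell and 4 rose with T, with a median of -0.22, and the shares of all sets were the 3.69% and 5.53% given above. In MRL/lpr, 3 fell and 9 rose, with a median of -0.01, beside 3.58% and 3.32% of all sets. Those 9 rises were 2 or 3 without any 1 of the 6 MRL/lpr pools, 6 without any 1 NOD P pool, and 2 (with 2 falls) when arrays were scaled to their medians. On the deposited signals no set was called in MRL/lpr, and in NOD 6 sets were higher and none lower. On the scaled signals, every NOD T pool lay below every NOD P pool in 26 of 87 sets and above in 6 (against 12.9% and 14.1% of all sets). In MRL/lpr the T pools lay below in 23 sets and above in 22 (against 14.6% and 13.8%). The CL counts among 35 probes were 11 and 2 in NOD (against 21.4% and 13.7%) and 9 and 7 in MRL/lpr (against 17.9% and 16.9%). On CL, 3 of 35 probes fell in NOD (Eif2b1, Eif3m and Eif4b) and 1 in MRL/lpr (Eif3a), and none rose (at an unadjusted p under 0.05, 8 were lower in each strain, 4 were higher in MRL/lpr and none in NOD). Of all 13614 CL probes at that threshold, 2229 were lower and 1623 higher in NOD, and 1743 were lower and 1611 higher in MRL/lpr. The CL medians were -0.31 in NOD and -0.11 in MRL/lpr, and the NOD median was 0.04 with normexp, where 1 probe was higher and none lower. The 3 falls on CL in NOD are a share near the 8.60% of all probes, and the 1 fall in MRL/lpr is below their 5.65%. When each strain was fitted alone, 2 CL probes were higher and none lower in MRL/lpr. Without NOD T pool 1 on Affy, the initiation factor calls were 16 lower and 5 higher in NOD and 16 lower and 13 higher in MRL/lpr, while the share of all sets called was 5.04% lower and 6.81% higher in NOD and 6.93% and 6.03% in MRL/lpr. Without that pool, 16 synthetase sets fell and none rose in NOD, and 10 fell and 2 rose in MRL/lpr.

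**Figure D1:**
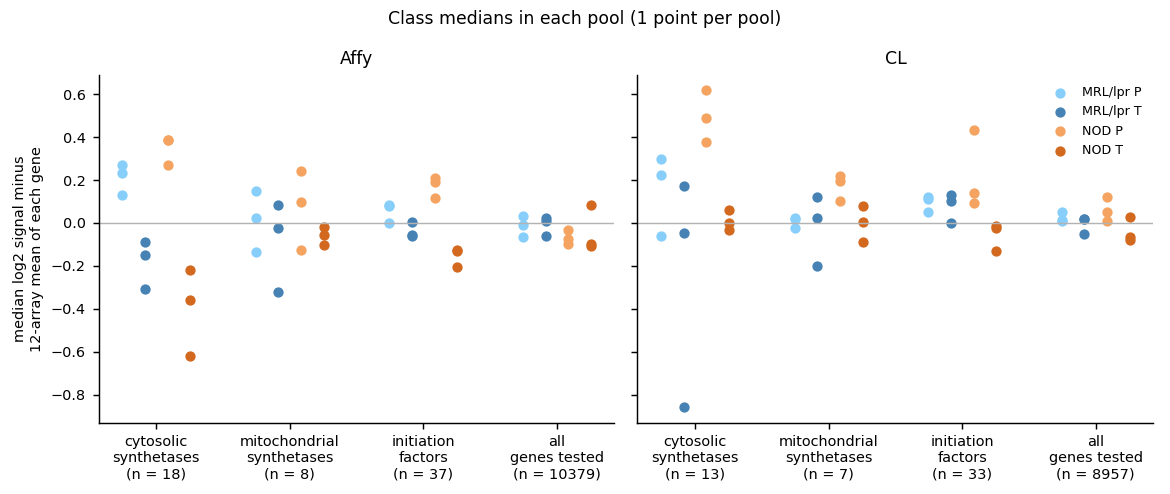
Median over the genes of each set of the log2 signal, taken from each gene's mean over the 12 arrays of a platform, for every pool (points; 3 pools per group). On Affy the cytosolic synthetases (18 genes) lie at 0.27 to 0.39 in the NOD P pools and -0.62 to -0.22 in the NOD T pools, and at 0.13 to 0.27 and -0.31 to -0.09 in MRL/lpr. On CL (13 genes) they lie at 0.38 to 0.62 and -0.03 to 0.06 in NOD and overlap in MRL/lpr.

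**Figure D2:**
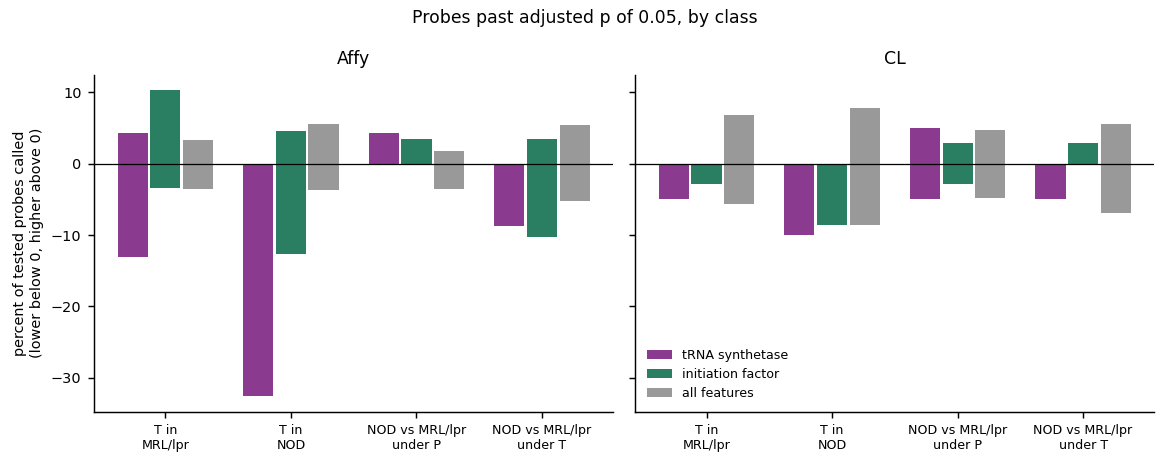
Percent of tested probes called higher (above 0) or lower (below 0) at an adjusted p under 0.05 for each comparison and class, with all probes of the platform in grey. The lowest bar is that of the Affy synthetases with T in NOD, where 15 of 46 sets fell.

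Aars, which charges the alanine tRNA, fell with T in NOD on both platforms and in MRL/lpr in 1 of its 2 Affy sets. On Affy it had the smallest adjusted p of the synthetases in both strains. Affy set 1423685_at read 2148, 2771 and 2838 in the NOD P pools and 826, 922 and 905 in the NOD T pools. In MRL/lpr it read 2477, 2350 and 2182 under P and 1095, 955 and 799 under T. T pools lay below P pools in both strains, and the changes were -1.54 ± 0.18 (adjusted p = 3.03e-05) and -1.31 ± 0.18 (adjusted p = 0.000241). Set 1451083_s_at changed in NOD by -1.09 ± 0.18 (adjusted p = 0.00085), and in MRL/lpr it gave -0.62 and was not called. The CL probe read 62.9, 58.5 and 52.1 in NOD P pools and 20.5, 25.5 and 10.6 in NOD T pools, a change of -1.70 ± 0.28 (adjusted p = 0.00104). In MRL/lpr the CL probe read 13.9, 15.7 and 16.5 under P and 13.7, 11.9 and 10.2 under T, close but without overlap, and gave -0.37 ± 0.28 (adjusted p = 0.46). Each of the 4 called falls held without any 1 pool.

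Aars is also 1 of the 3 synthetases, of 19 with a promoter in the RefSeq table (build GRCm38.p6), whose 250 bases before the gene start hold TGATGNAA on either strand, the core of the element that Atf4 and its partners bind. The others are Gars and Tars, which charge glycine and threonine tRNAs. The motif was found in 3.45% of all 32851 promoters and in 1 of 32 initiation factor genes (Eif2s3x). The E-box CACGTG, a site of Myc and related factors, was found in 6.02% of promoters, in Aars, Farsb and Iars, and in 7 initiation factor genes (Eif1b, Eif3f, Eif3k, Eif4a1, Eif4e, Eif4h and Eif5a). These are matches of letters in a window and not sites. The promoters of the 3 synthetases are shown for the spacing of the motif, with TGATGNAA (or its complement) and CACGTG in capitals, 5′ to 3′ on the strand of the gene.
Aars (chr8:111033592-111033841, plus strand): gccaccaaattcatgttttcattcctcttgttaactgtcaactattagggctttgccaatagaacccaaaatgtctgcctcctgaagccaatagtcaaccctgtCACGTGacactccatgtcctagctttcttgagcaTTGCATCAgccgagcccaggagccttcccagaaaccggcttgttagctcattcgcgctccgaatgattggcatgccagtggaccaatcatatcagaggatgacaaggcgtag
Gars (chr6:55037751-55038000, plus strand): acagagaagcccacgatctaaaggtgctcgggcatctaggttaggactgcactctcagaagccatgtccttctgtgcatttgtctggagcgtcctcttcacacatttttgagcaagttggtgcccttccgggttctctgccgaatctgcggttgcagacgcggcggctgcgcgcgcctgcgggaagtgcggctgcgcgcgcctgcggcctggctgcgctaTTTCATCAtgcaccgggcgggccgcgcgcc
Tars (chr15:11399659-11399908, minus strand): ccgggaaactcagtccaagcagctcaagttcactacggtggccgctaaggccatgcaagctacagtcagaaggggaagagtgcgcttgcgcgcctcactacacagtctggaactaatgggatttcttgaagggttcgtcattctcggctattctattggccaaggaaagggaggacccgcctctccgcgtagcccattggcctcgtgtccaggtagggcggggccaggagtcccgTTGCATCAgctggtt
The TGATGNAA match lies 112 bases before the start in Aars, 30 in Gars and 15 in Tars.

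Tars and Gars read as follows. Tars set 1460323_at read 2523, 2950 and 2542 in NOD P pools and 1605, 1557 and 1459 in NOD T pools, a log2 change of -0.79 ± 0.18 (adjusted p = 0.00806). The groups did not overlap, and the call was lost without NOD P pool 2 (adjusted p up to 0.0529). Gars read 2724, 3165 and 3650 under P and 1047, 2504 and 2434 under T in NOD, with a change of -0.77 ± 0.26 (adjusted p = 0.0842) that was not called. NOD T pool 1 was the lowest of its pools.

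Other cytosolic synthetases fell in NOD with pools that did not overlap. In all, 9 of 22 Affy sets outside the multisynthetase complex fell (median -0.76), where 3.69% of all sets fell, and 18 of 22 changes were negative. Nars, for asparagine, fell on both platforms. Its Affy set 1452866_at read 6377, 6309 and 8782 under P and 4601, 3717 and 3587 under T, a change of -0.84 ± 0.18 (adjusted p = 0.00595). Its CL probe read 48.5, 48.8 and 51.9 under P and 30.4, 31.0 and 29.7 under T, a change of -0.71 ± 0.20 (adjusted p = 0.0323). The CL call was lost without any 1 of NOD P pools 1, 2 and 3 and NOD T pools 1, 2 and 3 (adjusted p up to 0.0742), and it was also lost with quantile normalization and normexp. Nars set 1452866_at fell in MRL/lpr as well (-0.84 ± 0.18, adjusted p = 0.00913). The other Affy set of Nars, 1428666_at, gave -0.46 in NOD and -0.57 in MRL/lpr and was not called in either.

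Cars, for cysteine, fell in both strains on Affy. Its set 1452394_at read 1124, 1362 and 1295 in NOD P pools and 729, 597 and 489.6 in NOD T pools, with a change of -1.07 ± 0.21 (adjusted p = 0.00265). In MRL/lpr it read 871, 1003 and 1081 under P and 601, 573 and 515 under T, a change of -0.80 ± 0.21 (adjusted p = 0.0267), and this call was lost without any 1 of MRL/lpr P pools 2 and 3 and MRL/lpr T pools 2 and 3 (adjusted p up to 0.106). T pools were below P pools in each strain. Sars, for serine, fell in NOD in 2 Affy sets (-0.91 ± 0.18, adjusted p = 0.00345 and -0.79 ± 0.16, adjusted p = 0.00446). Its CL probe read 11.1, 1.09 and 9.69 in NOD P pools, of which 1 was low, and 9.04, 6.95 and 7.78 in NOD T pools, and was not called. Hars, for histidine, fell in NOD in 1 set, 1417024_at (-0.75 ± 0.19, adjusted p = 0.0174), and the call was lost without any 1 of NOD P pools 1 and 2 (adjusted p up to 0.0685).

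The phenylalanine enzyme is built of the products of Farsa and Farsb. Farsb set 1423709_s_at read 2174, 3158 and 3302 in MRL/lpr P pools and 1425, 1309 and 1152 in MRL/lpr T pools, a change of -1.13 ± 0.19 (adjusted p = 0.00128). In NOD it read 2944, 2668 and 2367 under P and 1526, 1630 and 1457 under T, a change of -0.79 ± 0.19 (adjusted p = 0.0135) that was lost without any 1 of NOD P pools 1 and 2 (adjusted p up to 0.0742). In this set no pool of a T group reached its P group. The 4 tested Affy sets of Farsb ranged from -1.235 to 0.285 in MRL/lpr, with 2 called. They ranged from -0.786 to 0.514 in NOD, with 1 called. The CL probe of Farsb was not called, with -0.69 ± 0.35 (adjusted p = 0.258) for MRL/lpr and -0.56 ± 0.35 (adjusted p = 0.338) for NOD. Farsa, the partner subunit, read 651, 601 and 401 under P and 986, 619.8 and 474 under T in NOD, with overlapping pools and a change of 0.29 ± 0.32 (adjusted p = 0.696). Wars, for tryptophan, was dim and was not called on either platform (on Affy -0.77 ± 0.39, adjusted p = 0.284, and on CL -0.23 ± 0.29, adjusted p = 0.666 in NOD).

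Several cytosolic synthetases share a multisynthetase complex in mammals, and the genes measured here were Eprs, Iars, Kars, Lars, Qars and Rars. In NOD 6 of their 12 Affy sets fell with T (median -0.78), where 3.69% of all sets fell. None of 3 CL probes was called. Lars, for leucine, fell in both strains (in NOD -0.69 ± 0.16, adjusted p = 0.00933, and in MRL/lpr -0.67 ± 0.16, adjusted p = 0.0167). The MRL/lpr call was lost without any 1 of MRL/lpr P pools 2 and 3 and MRL/lpr T pool 3 (adjusted p up to 0.0745). Iars, for isoleucine, fell in NOD in 1 of its 2 Affy sets. Set 1426705_s_at read 1911, 2384 and 2545 in NOD P pools and 239.7, 1115 and 1246 in NOD T pools. NOD T pool 1 was far below the other pools, and the change of -1.71 ± 0.42 (adjusted p = 0.0137) was lost without any 1 of NOD P pools 2 and 3 (adjusted p up to 0.0669). The other set of Iars, 1452154_at, gave -0.61 in NOD and was not called. Rars, for arginine, read 13.1, 19.1 and 17.6 in MRL/lpr P and 12.1, 10.8 and 6.59 in MRL/lpr T on CL, a change of -0.79 ± 0.23 (adjusted p = 0.0491). That call was lost without any 1 pool other than MRL/lpr P pool 1 and MRL/lpr T pool 1 (adjusted p up to 0.171), and the Affy set of Rars gave -0.47 ± 0.29 (adjusted p = 0.369) in MRL/lpr. Kars, for lysine, was not called in either strain (on Affy 0.07 ± 0.21, adjusted p = 0.944, and on CL -0.37 ± 0.20, adjusted p = 0.261 in NOD).

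Eprs, a single protein that charges both glutamate and proline tRNAs, gave different readings by probe set. Set 1426713_s_at read 2706, 3112 and 1749 in NOD P pools and 929, 800.5 and 862 in NOD T pools, a change of -1.51 ± 0.26 (adjusted p = 0.00102). In MRL/lpr it read 749, 610.5 and 444 under P and 439, 664 and 700.0 under T. The NOD P pools lay above those of every other group. Set 1452157_at also fell in NOD (-1.01 ± 0.21, adjusted p = 0.00494). Set 1452158_at instead rose in MRL/lpr, from 692, 715 and 688 to 1782, 1306 and 1863, a change of 1.22 ± 0.21 (adjusted p = 0.00178), and in NOD it changed by 0.13 ± 0.21 (adjusted p = 0.834).

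Qars, for glutamine, also split. Set 1456726_x_at read 3782, 3076 and 3856 in MRL/lpr P pools and 7511, 6063 and 6442 in MRL/lpr T pools. It read 5246, 4920 and 4850 in NOD P pools and 1972, 2853 and 3198 in NOD T pools. Thus T pools were above P pools in MRL/lpr and below them in NOD, with changes of 0.90 ± 0.20 (adjusted p = 0.00886) and -0.93 ± 0.20 (adjusted p = 0.00461). Set 1423712_a_at fell in NOD (-0.83 ± 0.20, adjusted p = 0.012) and changed in MRL/lpr by -0.12 ± 0.20 (adjusted p = 0.784). The MRL/lpr rise was lost without MRL/lpr P pool 2 (adjusted p up to 0.062), and the fall in 1423712_a_at was lost without NOD P pool 3 (adjusted p up to 0.0601). The CL probe read 34.5, 34.8 and 2.97 in NOD P pools, of which 1 was low, and 23.1, 23.6 and 24.1 in NOD T pools, and it was not called in either strain. Probe sets whose names end in _s_at or _x_at can bind transcripts of other genes.

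The synthetases of mitochondria, which charge tRNAs for the few proteins made inside that organelle, had no call with T on either platform (at an unadjusted p under 0.05, 1 Affy set was lower in MRL/lpr and no other probe was called). In NOD the 12 tested Affy sets ranged from -0.41 to 0.41 with a median of -0.20, and 10 were negative. The 7 CL probes had a median of 0.00. Taking each gene's brightest probe, the Affy median in NOD was -0.79 over 18 cytosolic genes, of which 16 were negative and 9 fell, and -0.14 over 8 mitochondrial genes. The difference between these 2 sets was not tested. Of all 10379 genes read in this way, 5061 were negative and 420 fell.

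**Figure D3:**
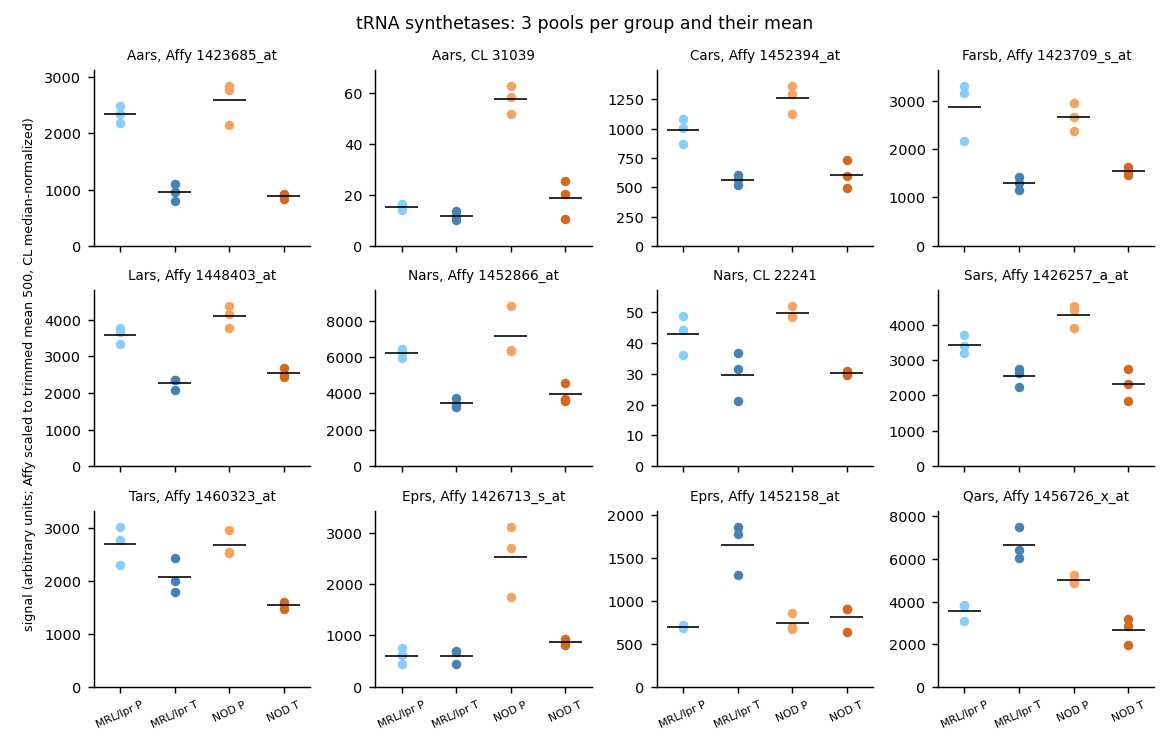
Signal of selected synthetase probes in every pool (points, 3 per group) with the group mean (line), in arbitrary units on axes that start at 0. On Affy, Aars reads 2148 to 2838 in NOD P and 826 to 922 in NOD T pools. Qars 1456726_x_at is higher with T in MRL/lpr and lower with T in NOD.

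Among initiation factors, the eIF4 group binds the mRNA cap (eIF4E), unwinds the leader (eIF4A with eIF4B or eIF4H) and bridges to the ribosome (the eIF4G proteins). In NOD 3 of its 23 Affy sets fell and 2 rose, and in MRL/lpr 1 fell and 2 rose. Of all Affy sets, 3.69% fell and 5.53% rose in NOD, and 3.58% fell and 3.32% rose in MRL/lpr. Eif4b fell in NOD in 2 of its 3 Affy sets and in 1 of its 2 CL probes. Its brightest Affy set read 6964, 7380 and 7656 under P and 3714, 4134 and 3980 under T in NOD, a change of -0.90 ± 0.18 (adjusted p = 0.00327) that held without any 1 pool (adjusted p up to 0.0187). The second set fell as well (-0.89 ± 0.22, adjusted p = 0.0146), and was lost without NOD P pool 3 (adjusted p up to 0.0684). CL probe 14313 read 29.5, 28.8 and 48.0 under P and 19.7, 22.3 and 18.1 under T in NOD, with no overlap and a change of -0.78 ± 0.23 (adjusted p = 0.0364). The CL call was lost without any 1 of MRL/lpr P pools 2 and 3, NOD P pool 3 and NOD T pools 1, 2 and 3 (adjusted p up to 0.105), and it was lost with quantile normalization and normexp. In NOD the brighter CL probe, 17162, gave -0.58 and Affy set 1426378_at gave -0.22, and neither was called.

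Eif4e itself was not called. Its brightest Affy set read 2546, 3291 and 3856 in NOD P pools and 611, 2808 and 1741 in NOD T pools and gave -1.15 ± 0.38 (adjusted p = 0.0723). The CL probe gave -0.33 ± 0.20 (adjusted p = 0.32). Eif4e2, a cap-binding relative that does not join the eIF4G bridge, rose in both strains in 1 of its Affy sets, 1435803_a_at. In MRL/lpr that set read 605, 450.5 and 369 under P and 1283, 1317 and 1197 under T. In NOD it read 532, 558 and 752 under P and 2635, 1335 and 1502 under T. T pools were above P pools in each strain (in MRL/lpr 1.44 ± 0.26, adjusted p = 0.00234, and in NOD 1.52 ± 0.26, adjusted p = 0.000988). Its other Affy sets and its CL probes were not called with T. Eif4a1, the helicase, fell in MRL/lpr in set 1430980_a_at (-1.02 ± 0.30, adjusted p = 0.0465) and in NOD in set 1434985_a_at (-1.08 ± 0.22, adjusted p = 0.00348), and the first of these was lost without any 1 pool other than MRL/lpr P pool 1, MRL/lpr T pool 1 and NOD T pools 1, 2 and 3 (adjusted p up to 0.217). Eif4g2, an eIF4G relative that lacks the eIF4E site, rose in NOD in set 1415863_at (0.86 ± 0.23, adjusted p = 0.0226) and in MRL/lpr in set 1452758_s_at (0.81 ± 0.21, adjusted p = 0.0295). Of these, the NOD call was lost without any 1 of NOD P pools 1 and 3 (adjusted p up to 0.101) and the MRL/lpr call was lost without any 1 of MRL/lpr P pools 1, 2 and 3 and MRL/lpr T pools 1 and 3 (adjusted p up to 0.126).

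The eIF4E-binding proteins hold eIF4E inactive until the kinase complex mTORC1 phosphorylates them. Eif4ebp1 read 28.3, 28.6 and 30.1 in MRL/lpr P pools and 52.1, 45.1 and 46.8 in MRL/lpr T pools on CL. Those pools did not overlap, but the change of 0.72 ± 0.29 (adjusted p = 0.147) was not called. On Affy its brightest set read 6472, 6271 and 7072 in NOD P pools and 1464, 4152 and 4753 in NOD T pools. The change was -1.10 ± 0.31 (adjusted p = 0.0314), with NOD T pool 1 the lowest, and the call was lost without any 1 pool other than NOD T pools 1, 2 and 3 (adjusted p up to 0.108). Eif4ebp2 read 664, 680.4 and 678 in MRL/lpr P pools and 1073, 1071 and 1215 in MRL/lpr T pools on Affy and rose by 0.73 ± 0.20 (adjusted p = 0.0341). The Eif4ebp2 call was lost without any 1 of MRL/lpr P pools 1, 2 and 3 and MRL/lpr T pools 1, 2 and 3 (adjusted p up to 0.0981), and the CL probe gave 0.50 ± 0.29 (adjusted p = 0.327). Eif4ebp3, on CL alone, read 20.5, 12.2 and 11.9 under P and 9.77, 1.94 and 11.8 under T in MRL/lpr, where 1 T pool was low, and was not called (-1.25 ± 0.54, adjusted p = 0.174).

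The eIF2 group carries the initiator tRNA. Eif2s2, its beta subunit, fell in NOD in 2 Affy sets. The brighter, 1456617_a_at, read 7217, 5281 and 5567 under P and 3993, 2589 and 3166 under T in NOD, a change of -0.90 ± 0.19 (adjusted p = 0.00582). In MRL/lpr it read 5590, 5087 and 5867 under P and 6963, 5887 and 6379 under T, with T pools just above P pools, and was not called (0.22 ± 0.19, adjusted p = 0.56). Set 1417712_at fell in NOD (-0.93 ± 0.21, adjusted p = 0.00903), and a dimmer set, 1448820_a_at, rose in MRL/lpr from 1011, 851 and 1158 to 2004, 1648 and 1788 (0.86 ± 0.22, adjusted p = 0.0269). The rise was lost without any 1 of MRL/lpr P pools 1 and 2 and MRL/lpr T pools 1, 2 and 3 (adjusted p up to 0.125), and the fall in 1417712_at was lost without NOD P pool 1 (adjusted p up to 0.0558). On CL, Eif2s2 gave -0.52 ± 0.20 (adjusted p = 0.103) in NOD. Eif2s3x, the X-linked gamma subunit, was not called in any set (in MRL/lpr -0.64 ± 0.23, adjusted p = 0.108, and in NOD -0.14 ± 0.23, adjusted p = 0.829 for the brightest).

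Eif2d, a separate factor that can place tRNA on the small subunit without eIF2, rose in both strains in 1 of its 3 tested Affy sets. This set, 1451211_a_at, read 545, 531 and 563 under P and 1190, 1439 and 1014 under T in MRL/lpr. In NOD it read 699.9, 599.9 and 555 under P and 1641, 1133 and 1278 under T. T pools were above P pools in each strain, by 1.14 ± 0.21 (adjusted p = 0.00281) and 1.12 ± 0.21 (adjusted p = 0.00212), and both calls held without any 1 pool. Its brightest set, 1436724_a_at, rose in MRL/lpr (0.78 ± 0.20, adjusted p = 0.0216) and gave -0.17 ± 0.20 (adjusted p = 0.706) in NOD, and the MRL/lpr call was lost without any 1 of MRL/lpr P pools 1, 2 and 3 and MRL/lpr T pools 1, 2 and 3 (adjusted p up to 0.0902). Set 1455797_x_at and the CL probe were not called, and in NOD the former gave -0.79 ± 0.35 (adjusted p = 0.196). The eIF2B complex recycles eIF2 after each start. Its Eif2b1 subunit fell in NOD on CL, from 8.56, 9.22 and 9.92 to 4.91, 6.30 and 2.53 (-1.11 ± 0.29, adjusted p = 0.0216), and the call was lost without any 1 of NOD P pools 2 and 3 (adjusted p up to 0.0609) and with normexp. Eif2b2 rose on Affy in NOD by 1.59 ± 0.45 (adjusted p = 0.0314) although its pools overlapped (231, 314 and 864 under P and 755, 1443 and 1562 under T), and this call was lost without any 1 of MRL/lpr T pools 1 and 3, NOD P pools 1 and 2 and NOD T pools 2 and 3 (adjusted p up to 0.186). Eif2b5, the catalytic subunit, was not called on either platform. On CL it read 10.4 and 20.7 in the 2 measured NOD P pools and 15.8, 2.84 and 2.18 in NOD T pools. That change of -1.67 (adjusted p = 0.133) was called in 1 of the alternative fits.

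The eIF3 complex covers the small subunit and holds the other factors in place. In NOD 5 of its 23 Affy sets fell and none rose (median -0.30), where 3.69% of all sets fell and 5.53% rose, and 19 changes were negative. On CL 9 of 10 changes were negative, with 1 called, where 7991 of all 13614 probes were negative and 8.60% fell. Eif3a, the largest subunit, fell in MRL/lpr on both platforms. The brightest Affy set read 5235, 5364 and 6031 under P and 3815, 3181 and 2838 under T in MRL/lpr, a change of -0.77 ± 0.17 (adjusted p = 0.0112) that was lost without MRL/lpr P pool 3 (adjusted p up to 0.0573). The CL probe read 4.59, 3.83 and 5.21 under P and 1.43, 3.41 and 1.62 under T, with no overlap and a change of -1.18 ± 0.33 (adjusted p = 0.0369) that was lost without any 1 of MRL/lpr P pools 1, 2 and 3, MRL/lpr T pools 1 and 3 and NOD P pool 1 (adjusted p up to 0.126). In NOD 2 of the 4 Affy sets of Eif3a fell (-0.68 ± 0.17, adjusted p = 0.0177 and -1.33 ± 0.29, adjusted p = 0.00661) and the CL probe gave -0.47 ± 0.33 (adjusted p = 0.388). The other Affy sets were not called, and set 1416661_at gave 0.77 ± 0.38 (adjusted p = 0.259) in MRL/lpr.

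Eif3m fell in NOD on CL and in 1 of its 2 tested Affy sets. The other set, 1451076_s_at, gave 0.07 and was not called. The CL probe read 66.8, 86.0 and 95.2 under P and 59.1, 55.9 and 51.0 under T, without overlap, a change of -0.57 ± 0.17 (adjusted p = 0.0421). This call was lost without any 1 pool other than MRL/lpr T pools 1 and 3 and NOD P pool 1 (adjusted p up to 0.113), and it was lost with quantile normalization, a halved floor and normexp. Affy set 1437189_x_at read 369, 415 and 213 under P and 225, 80.0 and 41.8 under T, with overlapping pools and a change of -1.56 ± 0.42 (adjusted p = 0.0239) that was lost without any 1 of NOD P pools 1 and 2 and NOD T pools 2 and 3 (adjusted p up to 0.126). Eif3c fell in both strains in set 1456083_x_at (in MRL/lpr -1.55 ± 0.33, adjusted p = 0.0077, and in NOD -1.91 ± 0.33, adjusted p = 0.000983), whereas its brightest set gave -0.29 ± 0.17 (adjusted p = 0.351) and -0.20 ± 0.17 (adjusted p = 0.578). The MRL/lpr call of Eif3c was lost without any 1 of MRL/lpr P pools 2 and 3 (adjusted p up to 0.0517). Eif3e fell in NOD in set 1460432_a_at (-1.17 ± 0.24, adjusted p = 0.0037).

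Eif5 triggers GTP hydrolysis by eIF2 at the start codon, and it was the member of its group (eIF1, eIF1A, eIF5 and eIF5B) that was called with T. Its brightest set, 1415723_at, read 4258, 3899 and 5026 in MRL/lpr P pools and 8415, 8753 and 7057 in MRL/lpr T pools. The groups did not overlap and the rise was 0.88 ± 0.25 (adjusted p = 0.039). Sets 1454663_at and 1454664_a_at rose in MRL/lpr by 0.77 ± 0.22 (adjusted p = 0.048) and 1.03 ± 0.30 (adjusted p = 0.0443). The remaining set, 1433631_at, gave -0.46 in MRL/lpr and was not called. Each of the 3 rises was lost without any 1 pool other than the 3 NOD T pools, and when arrays were scaled to their medians. In NOD, set 1415723_at read 8294, 9635 and 8505 under P and 3320, 6512 and 7373 under T and gave -0.70 ± 0.25 (adjusted p = 0.0927). The 12 Affy sets of the group had no call in NOD, and 11 were negative (median -0.33).

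Eif5a, which helps the ribosome past proline stretches, was among the brightest members and was not called. On Affy its brightest set read 26960, 23530 and 18080 in NOD P pools and 23930, 15900 and 16850 in NOD T pools (-0.28 ± 0.23, adjusted p = 0.576). On CL it gave -0.40 ± 0.20 (adjusted p = 0.225). Eif6, which keeps the large ribosomal subunit from joining too early, was not called with T on CL (in MRL/lpr 0.09 ± 0.20, adjusted p = 0.85, and in NOD 0.32 ± 0.20, adjusted p = 0.319) or on Affy (0.36 ± 0.23, adjusted p = 0.386 and 0.18 ± 0.23, adjusted p = 0.751).

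**Figure D4:**
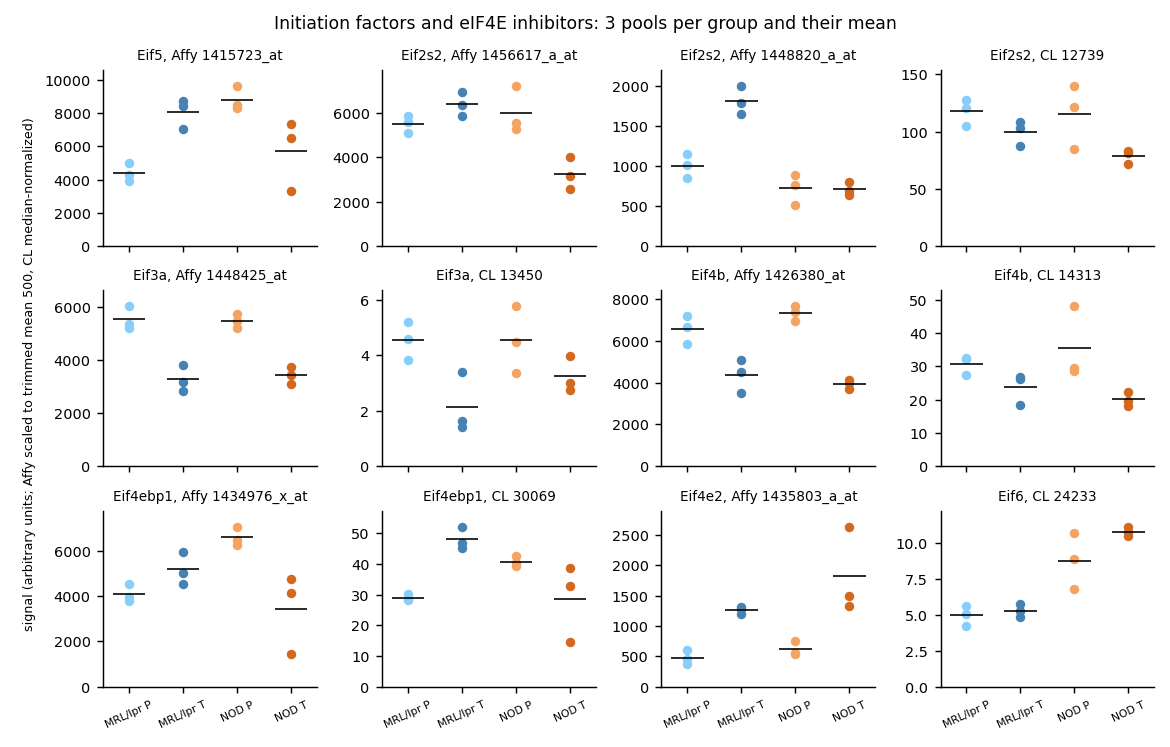
Signal of selected initiation factor and eIF4E inhibitor probes in every pool (points, 3 per group) with the group mean (line), in arbitrary units on axes that start at 0. Eif4b on Affy reads 6964 to 7656 in NOD P and 3714 to 4134 in NOD T pools. Eif6 on CL reads 4.23 to 5.76 in MRL/lpr and 6.77 to 11.1 in NOD pools.

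The strain by T interaction asks whether the response to T differed between strains, as the NOD change minus the MRL/lpr change. On Affy 3 of 87 initiation factor sets and 2 of 46 synthetase sets were lower and none was higher, where 0.917% of all sets were lower and 3.00% higher (at an unadjusted p under 0.05, 19 and 7 were lower and 2 and 0 higher). The share of all Affy sets at the unadjusted threshold is not given here. Qars set 1456726_x_at gave -1.84 ± 0.28 (adjusted p = 0.00067), which held without any 1 pool (adjusted p up to 0.00564). Eprs set 1426713_s_at gave -1.51 ± 0.37 (adjusted p = 0.0266) and was lost without any 1 pool other than MRL/lpr P pool 1, MRL/lpr T pool 1, NOD P pool 3 and NOD T pools 1 and 3 (adjusted p up to 0.098). The 2 Eif5 sets 1415723_at and 1454663_at gave -1.58 ± 0.35 (adjusted p = 0.0142) and -1.30 ± 0.32 (adjusted p = 0.026). The first of them was lost without any 1 of MRL/lpr P pool 2, MRL/lpr T pools 1 and 2 and NOD P pool 2 (adjusted p up to 0.0562) and the second was lost without any 1 of MRL/lpr P pools 1 and 2, MRL/lpr T pools 1 and 3 and NOD P pools 1 and 2 (adjusted p up to 0.0937). Eif5 set 1433631_at gave 0.55 in the interaction and was not called. Eif2s2 set 1456617_a_at gave -1.11 ± 0.28 (adjusted p = 0.0286) and was lost without any 1 pool other than MRL/lpr T pool 2, NOD P pools 2 and 3 and NOD T pool 1 (adjusted p up to 0.0935). On CL no member was called by limma, where 3.88% of all probes were higher and 4.16% lower. At an unadjusted p under 0.05 on CL, 6 initiation factor probes and 1 synthetase probe were lower and 1 initiation factor probe was higher, and the methods' t-test has no such comparison. Of all 13614 CL probes at that threshold, 1642 were lower and 1162 higher. For Aars the interaction was -0.23 ± 0.26 (adjusted p = 0.714) on Affy and -1.33 ± 0.39 (adjusted p = 0.0594) on CL.

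Under placebo, NOD glands were compared with MRL/lpr glands. At an unadjusted p under 0.05 on Affy, 7 synthetase and 10 initiation factor sets were higher in NOD and 3 and 2 lower. The share of all sets at that threshold is not given here. After adjustment, 2 of 46 synthetase sets and 3 of 87 initiation factor sets on Affy were higher in NOD and none was lower, where 1.78% of all sets were higher and 3.56% lower. These were Eprs (1426713_s_at, 2.06 ± 0.26, adjusted p = 6.16e-05, and 1452157_at, 0.76 ± 0.21, adjusted p = 0.0478) and 3 sets of Eif5, of which the brightest gave 1.01 ± 0.25 (adjusted p = 0.0202). The Eprs call in 1426713_s_at held without any 1 pool (adjusted p up to 0.00123), while that in 1452157_at was lost without any 1 pool other than NOD P pool 3 and NOD T pools 1 and 2 (adjusted p up to 0.205), and the Eif5 call was lost without any 1 of MRL/lpr P pools 1 and 2 and NOD P pools 1, 2 and 3 (adjusted p up to 0.113).

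CL gave other members under placebo. There 1 synthetase probe was higher and 1 lower of 20, and likewise 1 and 1 of 35 initiation factor probes, beside 4.66% and 4.88% of all probes. Aars was higher in NOD P pools, with the pools given above lying far from those of MRL/lpr (1.91 ± 0.28, adjusted p = 0.00104), a call that held without any 1 pool (adjusted p up to 0.00698). On Affy the same comparison of Aars gave 0.14 ± 0.18 (adjusted p = 0.822). Vars, for valine, read 6.88, 7.03 and 5.29 in MRL/lpr P and 2.19, 2.42 and 2.79 in NOD P pools (-1.37 ± 0.32, adjusted p = 0.0183) and was lost without any 1 of MRL/lpr P pools 1 and 2 and NOD P pools 1 and 2 (adjusted p up to 0.0731). Eif6 read 5.05, 4.23 and 5.63 in MRL/lpr P pools and 8.87, 10.7 and 6.77 in NOD P pools (0.80 ± 0.20, adjusted p = 0.0244), and was lost without any 1 of MRL/lpr P pools 1 and 2 and NOD P pools 1 and 2 (adjusted p up to 0.105). Eif4e3, another cap-binding relative, read 1.65, 2.15 and 1.48 in MRL/lpr P pools and 0.439, 0.838 and 0.732 in NOD P pools, where every spot was near background, so that MRL/lpr was at least 1.26-fold higher (adjusted p = 0.00356).

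Under T the strain comparison had more Affy calls. For initiation factors 9 of 87 sets were lower in NOD and 3 higher, and for synthetases 4 of 46 were lower and none higher (2 at an unadjusted p under 0.05), where 5.22% of all sets were lower and 5.39% higher. The share of all sets at the unadjusted threshold is not given here. Vars was the 1 member called on both platforms, at 584, 568 and 517 in MRL/lpr T and 77.6, 146 and 186 in NOD T pools on Affy (-2.11 ± 0.36, adjusted p = 0.00123) and -1.17 ± 0.32 (adjusted p = 0.0331) on CL. The CL call was lost without any 1 of MRL/lpr T pools 1 and 2 and NOD T pools 1, 2 and 3 (adjusted p up to 0.118). Qars was lower in 2 sets (1456726_x_at, -1.34 ± 0.20, and 1456213_x_at, -0.95 ± 0.23) and Eprs in 1 (1452158_at, -1.02 ± 0.21). All 3 called sets of Eif2s2 were lower (from -1.36 to -0.74), as were 1 set each of Eif2d, Eif3e, Eif3m, Eif4b and Eif4h. Eif4a1 was called both ways, higher in 1427058_at (1.31 ± 0.27) and lower in 1434985_a_at (-0.82 ± 0.22). Higher calls were also seen for 1 set each of Eif2b4 and Eif5. Of the 16 Affy calls, those that held without any 1 pool were Vars, Qars 1456726_x_at, Eprs, Eif2s2 1448820_a_at and 1456617_a_at, and Eif4a1 1427058_at. The Eif2b4 call was lost without any 1 pool other than NOD T pools 2 and 3 (adjusted p up to 0.0988). That of Eif2s2 1417712_at was lost without any 1 pool other than NOD P pools 1 and 3 and NOD T pools 1 and 2 (adjusted p up to 0.118). Eif3e was lost without any 1 of MRL/lpr P pool 2 and MRL/lpr T pools 1, 2 and 3 (adjusted p up to 0.109), Eif3m was lost without any 1 of MRL/lpr T pools 1 and 3 and NOD T pools 2 and 3 (adjusted p up to 0.0998), and Eif4h was lost without any 1 of MRL/lpr T pools 1, 2 and 3 (adjusted p up to 0.0773). Eif5 was lost without any 1 of MRL/lpr T pools 2 and 3 and NOD T pool 3 (adjusted p up to 0.106), and Eif4a1 1434985_a_at was lost without any 1 of MRL/lpr T pools 1 and 3 (adjusted p up to 0.0793). Eif2d was lost without MRL/lpr T pool 2 (adjusted p up to 0.0522), Eif4b was lost without MRL/lpr T pool 3 (adjusted p up to 0.0755), and Qars 1456213_x_at was lost without MRL/lpr T pool 2 (adjusted p up to 0.0576). On CL, 1 of 35 initiation factor probes was higher (Eif6, 1.03 ± 0.20, adjusted p = 0.00445) and 1 of 20 synthetase probes lower (Vars), beside 5.57% of all probes higher and 6.85% lower. Before scaling, the median of all Affy sets in this comparison lay at 1.52, and 71 initiation factor and 34 synthetase sets were higher and none lower. When arrays were scaled to their medians, 3 initiation factor sets were lower and 6 higher, and 2 synthetase sets were lower and 1 higher.

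Counted over all comparisons and both platforms, 32 of the 69 genes had at least 1 call (46.4%, against 31.5% of the 14182 named genes, which had a mean of 1.80 tested probes against 2.72 for the members). The 37 others were the 10 mitochondrial synthetases, the cytosolic Farsa, Gars, Kars, Wars and Yars, and 22 initiation factors (Eif1a, Eif1ax, Eif1b, Eif2b5, Eif2s3x, Eif2s3y, Eif3b, Eif3d, Eif3f, Eif3h, Eif3i, Eif3j1, Eif3k, Eif3l, Eif4a2, Eif4a3, Eif4e, Eif4ebp3, Eif4enif1, Eif4g3, Eif5a and Eif5b). Their 50 tested Affy sets changed with T by -1.15 to 0.41 in NOD and -1.24 to 0.71 in MRL/lpr, and their 25 tested CL probes by -1.67 to 1.41 and -1.25 to 0.72. A missing call does not show that these genes did not respond. With T in NOD, Gars and Eif4e on Affy were each called in 2 of the alternative fits.

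The platforms and the probe sets of 1 gene often differed. Of 30 initiation factor and 18 synthetase genes tested on both platforms, 6 were called in the same direction on both, in at least 1 probe of each. They were Aars, Nars, Eif3m and Eif4b with T in NOD, Eif3a with T in MRL/lpr, and Vars between strains under T. Of 37 member genes with several tested Affy sets, 20 had a call with T in NOD, 2 had every set called, and 15 had sets of both signs. The median span between a gene's lowest and highest set was 0.77. In MRL/lpr, 14 had a call, none had every set called, and 17 had both signs. None of these numbers was counted over all genes, so whether they are particular to the members is not known. CL also held single low pools. At least 1 pool lay more than 4-fold below both others of its group in 5 of 35 initiation factor probes and 4 of 20 synthetase probes (14.3% and 20.0%, against 7.26% of all probes), and in 1 of 87 and 1 of 46 Affy sets.

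**Figure D5:**
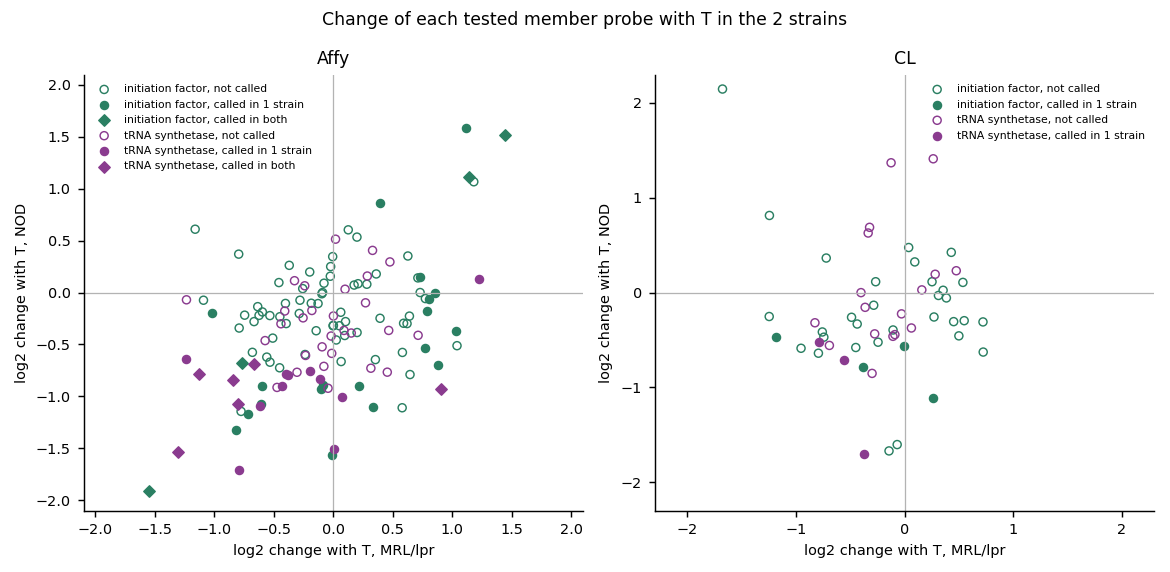
Change with T in NOD against change with T in MRL/lpr (log2) for every tested member probe on each platform, with filled symbols for called probes. On Affy the synthetase sets have a median of -0.60 on the NOD axis and -0.15 on the MRL/lpr axis. The 2 axes share no arrays.

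Genes around these classes were read by their brightest probe from lists of the surrounding pathways. Of all 10379 Affy genes read in this way, 420 fell and 677 rose with T in NOD, and 402 fell and 370 rose in MRL/lpr. Of 8957 CL genes, 767 fell and 769 rose in NOD, and 578 fell and 593 rose in MRL/lpr. Among eIF2 kinases and their stress response, none of 14 tested genes was called with T on CL, and on Affy 2 of 16 fell in NOD and none in MRL/lpr. Those were Atf4 (-1.03 ± 0.19, adjusted p = 0.00152) and Asns, the asparagine synthetase and an Atf4 target (-1.68 ± 0.24, adjusted p = 0.000164). On CL their changes in NOD were -0.66 ± 0.22 (adjusted p = 0.0642) and -1.11 ± 0.38 (adjusted p = 0.0725). At an unadjusted p under 0.05 the CL list had 3 genes lower and none higher in NOD, and 1 lower and 1 higher in MRL/lpr. Of all 8957 CL genes at that threshold, 1489 were lower and 1159 higher in NOD, and 1259 were lower and 1010 higher in MRL/lpr. Aimp1, a scaffold protein of the multisynthetase complex, fell on Affy in NOD (-1.09 ± 0.25, adjusted p = 0.00897) and gave -0.59 ± 0.20 (adjusted p = 0.0628) on CL.

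In the mTORC1 pathway, Deptor, an inhibitor of the kinase, fell in NOD on Affy (-1.81 ± 0.35, adjusted p = 0.00268), and Rheb, the GTPase that activates it, rose in both strains on that platform (in MRL/lpr 0.79 ± 0.23, adjusted p = 0.0474, and in NOD 1.23 ± 0.23, adjusted p = 0.00195). These were the Affy calls among 12 genes, and on CL Deptor gave -0.84 ± 0.29 (adjusted p = 0.0758). Mtor fell in MRL/lpr on CL (-1.22 ± 0.24, adjusted p = 0.00571), whereas Affy gave 0.03 ± 0.28 (adjusted p = 0.978). Among elongation and termination factors, Eef1b2 fell in NOD on Affy (-0.84 ± 0.20, adjusted p = 0.0127 and on CL -0.51 ± 0.16, adjusted p = 0.0517). Eef1a2 went in opposite directions in MRL/lpr, a fall on CL (-1.03 ± 0.30, adjusted p = 0.0445) and a rise on Affy (adjusted p = 0.0373). Paip2, a partner of the poly(A)-binding protein, fell in MRL/lpr on Affy (-1.06 ± 0.20, adjusted p = 0.00375). Pabpn1, a poly(A)-binding protein of the nucleus, fell in NOD on both platforms (Affy -1.23 ± 0.23, adjusted p = 0.00204, and CL -0.93 ± 0.17, adjusted p = 0.0022). Genes for hypusine, the modification that eIF5A carries, and for removal of the first methionine had no call with T in either strain by limma, and at an unadjusted p under 0.05 only 1 Affy gene was higher and 1 lower, both in MRL/lpr.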

How the data were processed

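Total RNA from pooled lacrimal glands was labelled with biotin and read on CodeLink UniSet Mouse 20K I bioarrays (CL) and on GeneChip Mouse Genome 430A 2.0 arrays (Affy), 12 arrays each. The deposited CL intensities are spot signals over local background, which the authors divided by a factor per array so that the median lay near 1. The deposited Affy intensities came from Affymetrix software. The methods give a trimmed mean of 500 per array, which the deposited values do not have, so each array was scaled to it here with 2% of probe sets trimmed at each end. A genome build used by the authors is not given in the sources used here, and promoter sequences came from the RefSeq table of GRCm38.p6. No total count of reads exists for arrays, and the 3 pools per group limit the precision.

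Values were raised to a floor (0.5 on CL, 70.5 on Affy) and put on the log2 scale. Probes with a group mean above the floor were kept (13614 of 17440 on CL, 17891 of 22690 on Affy). CL spots marked contaminated, irregular or masked were left out (67 over the 12 arrays), and near-background and saturated spots were kept. The 4 group means of each platform were fitted with limma 3.58.1 in R 4.3.3 (lmFit and eBayes with an intensity trend), and p-values were adjusted by Benjamini-Hochberg over all kept probes of the platform. Log2 changes are understated where a value was raised to the floor. Tables and plots were made with Python 3.11.15, pandas 2.3.3, numpy 2.4.6, scipy 1.17.1 and matplotlib 3.10.9.

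Symbols were taken from GEO's platform annotation and some are out of date. A single symbol was listed for 11377 CL probes and 20393 Affy sets, several for 691 Affy sets, and none for 6063 and 1606. Sets with several symbols were not named, and 5 of these included a member. A gene was represented by its probe with the highest mean signal. Values in every pool were given for members called alike on both platforms, for those with the largest called rises and falls with T in each class, platform and strain, for those called in the interaction, for those with the largest called strain differences under placebo, and for a list of core factors whether called or not. Members and lists were chosen with earlier results of these data known.

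The alternatives tried were quantile normalization, a halved or doubled floor, no filter, normexp with an offset of 50 on the raw CL intensities, the Affy signals as deposited or scaled to each array's median, each strain fitted alone, a replicate block, averaging a gene's probes, the methods' t-test on unlogged signals, and each pool left out in turn. The fit was tested on simulated data with planted changes. With T in NOD it recovered 28.0% of planted log2 changes of 1 on CL (13543 probes) and 35.0% on Affy (17891 sets), and 83.0% and 93.0% of changes of 2. In MRL/lpr it recovered 24.0% and 46.0%, and 81.0% and 97.0%. Each share rests on 100 planted changes, and whether recovery differs between the strains was not tested. Changes were planted only in probes whose mean log2 signal lay more than 2 above the floor. The noise was drawn from a normal distribution, with no single low pools added. Recovery for dim probes and for probes with a single low pool is thus not known. Of the calls on the simulated data, 3.48% on CL and 4.48% on Affy were false with T in NOD. In MRL/lpr the false shares were 7.08% and 7.14%.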

Additional observations from a re-analysis of the deposited data

Results flagged for a closer look

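In 5 Affy probe sets the response to T differed between the strains by a test of the difference itself (limma, adjusted p under 0.05 in the interaction). As the NOD change minus the MRL/lpr change on the log2 scale, the values were -1.84 for Qars 1456726_x_at, -1.51 for Eprs 1426713_s_at, -1.58 for Eif5 1415723_at, -1.30 for Eif5 1454663_at and -1.11 for Eif2s2 1456617_a_at. The Qars set went up with T in MRL/lpr and down in NOD, with no overlap of pools in either strain. Another Eif5 set, 1433631_at, gave 0.55 and was not called. On the deposited Affy signals none of the 5 was called. CL had no probe for Eprs or Eif5, and its probes for Qars and Eif2s2 gave no called interaction. Strain was joined to age, to pool size and, if the labels hold, to treatment time, and the part of each cannot be told apart.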

How the results depend on the processing

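Counts of called members depended on the processing, as follows, and the cause of each change was not tested. With quantile normalization, the number of called probes changed for CL initiation factors to 2 from 1 with T in MRL/lpr and to 1 from 3 with T in NOD, for CL synthetases to 1 from 2 with T in NOD, for Affy synthetases to 4 from 2 in the interaction and to 1 from 2 between strains under P. With the floor doubled, the number of called probes changed for CL initiation factors to 2 from 1 with T in MRL/lpr and to 1 from 0 in the interaction, for CL synthetases to 1 from 0 in the interaction, for Affy synthetases to 4 from 2 in the interaction and to 4 from 2 between strains under P. With no filter on dim probes, the number of called probes changed for CL initiation factors to 0 from 1 with T in MRL/lpr, for CL synthetases to 0 from 1 with T in MRL/lpr and to 0 from 1 between strains under T, for Affy initiation factors to 1 from 3 in the interaction, to 1 from 3 between strains under P and to 7 from 12 between strains under T, for Affy synthetases to 1 from 2 in the interaction and to 1 from 2 between strains under P. By the methods' t-test without adjustment, the number of called probes changed for CL initiation factors to 7 from 1 with T in MRL/lpr, to 7 from 3 with T in NOD, to 7 from 2 between strains under P and to 5 from 1 between strains under T, for CL synthetases to 7 from 2 with T in NOD, to 4 from 2 between strains under P and to 0 from 1 between strains under T, for Affy initiation factors to 36 from 12 with T in MRL/lpr and to 16 from 3 between strains under P, for Affy synthetases to 17 from 8 with T in MRL/lpr, to 14 from 2 between strains under P and to 7 from 4 between strains under T. With each strain fitted alone, the number of called probes changed for CL initiation factors to 2 from 1 with T in MRL/lpr and to 1 from 3 with T in NOD, for CL synthetases to 0 from 1 with T in MRL/lpr and to 5 from 2 with T in NOD, for Affy initiation factors to 3 from 15 with T in NOD, for Affy synthetases to 9 from 15 with T in NOD. With normexp on the raw CL intensities, the number of called probes changed for CL initiation factors to 5 from 1 with T in MRL/lpr, to 1 from 3 with T in NOD and to 1 from 2 between strains under P, for CL synthetases to 0 from 1 between strains under T. By the methods' t-test after Benjamini-Hochberg adjustment, the number of called probes changed for CL initiation factors to 0 from 3 with T in NOD and to 1 from 2 between strains under P, for CL synthetases to 0 from 1 with T in MRL/lpr, to 1 from 2 between strains under P and to 0 from 1 between strains under T, for Affy initiation factors to 2 from 12 with T in MRL/lpr, to 2 from 15 with T in NOD, to 0 from 3 between strains under P and to 0 from 12 between strains under T, for Affy synthetases to 2 from 8 with T in MRL/lpr, to 0 from 15 with T in NOD, to 0 from 2 between strains under P and to 0 from 4 between strains under T. With the floor halved, the number of called probes changed for CL synthetases to 0 from 1 with T in MRL/lpr, for Affy synthetases to 1 from 2 between strains under P. On the deposited Affy signals, the number of called probes changed for Affy initiation factors to 0 from 12 with T in MRL/lpr, to 6 from 15 with T in NOD, to 0 from 3 in the interaction, to 1 from 3 between strains under P and to 71 from 12 between strains under T, for Affy synthetases to 0 from 8 with T in MRL/lpr, to 0 from 15 with T in NOD, to 0 from 2 in the interaction, to 1 from 2 between strains under P and to 34 from 4 between strains under T. With each Affy array scaled to its own median, the number of called probes changed for Affy initiation factors to 4 from 12 with T in MRL/lpr and to 0 from 3 in the interaction, for Affy synthetases to 1 from 2 between strains under P. With the mean of the probes of a gene in place of its brightest probe, the number of called genes changed for Affy initiation factors to 3 from 1 in the interaction, to 2 from 1 between strains under P and to 3 from 5 between strains under T, for Affy synthetases to 2 from 1 in the interaction and to 2 from 1 between strains under P.

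Directions also moved where totals hide it. For CL initiation factors with T in MRL/lpr, 1 lower as reported became 2 higher with each strain fitted alone and 1 higher with the replicate block, and with T in NOD 3 lower became 1 higher with normexp. For CL synthetases with T in NOD, 2 lower became 1 higher and 1 lower with normexp. On the deposited Affy signals, initiation factors with T in NOD went from 4 higher and 11 lower to 6 higher and none lower, and all calls between strains under T were higher. With arrays scaled to their medians, the calls between strains under T went from 3 higher and 9 lower to 6 higher and 3 lower for initiation factors, and from 4 lower to 1 higher and 2 lower for synthetases. With the floor doubled, synthetases between strains under P went from 2 higher to 2 higher and 2 lower.

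With the replicate number as a block, the number of called probes changed for CL initiation factors to 1 from 3 with T in NOD, to 1 from 0 in the interaction and to 1 from 2 between strains under P, for CL synthetases to 0 from 1 with T in MRL/lpr and to 1 from 2 with T in NOD, for Affy synthetases to 1 from 2 between strains under P. Pools with the same number had deviations that correlated at -0.07 to 0.11, so the numbers were not taken as a pairing. The block lost 8 of the 89 called changes of single probes.

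With 1 pool left out at a time, the numbers of called probes were as follows. CL initiation factors had 0 to 3 (from 1) with T in MRL/lpr, 0 to 5 (from 3) with T in NOD, 0 to 2 (from 0) in the interaction, 1 to 4 (from 2) between strains under P and 1 to 3 (from 1) between strains under T. CL synthetases had 0 to 2 (from 1) with T in MRL/lpr, 1 to 2 (from 2) with T in NOD, 0 to 1 (from 0) in the interaction, 1 to 3 (from 2) between strains under P and 0 to 1 (from 1) between strains under T. Affy initiation factors had 3 to 29 (from 12) with T in MRL/lpr, 9 to 21 (from 15) with T in NOD, 0 to 11 (from 3) in the interaction, 1 to 6 (from 3) between strains under P and 4 to 15 (from 12) between strains under T. Affy synthetases had 5 to 12 (from 8) with T in MRL/lpr, 1 to 4 (from 2) in the interaction and 1 to 5 (from 2) between strains under P. With T in NOD, Affy synthetases had 11 to 17 (from 15), and between strains under T they had 3 to 6 (from 4). The pools whose removal moved a count on Affy by over 1.5 times were these. Affy initiation factors with T in MRL/lpr had 6 without MRL/lpr P pool 1, 3 without MRL/lpr P pool 2, 3 without MRL/lpr P pool 3, 7 without MRL/lpr T pool 1, 6 without MRL/lpr T pool 2, 4 without MRL/lpr T pool 3 and 29 without NOD T pool 1. Affy initiation factors with T in NOD had 9 without NOD P pool 1. Affy initiation factors in the interaction had 1 without MRL/lpr P pool 1, 0 without MRL/lpr P pool 2, 0 without MRL/lpr T pool 1, 1 without MRL/lpr T pool 3, 1 without NOD P pool 1, 1 without NOD P pool 2, 11 without NOD T pool 1 and 5 without NOD T pool 3. Affy initiation factors between strains under P had 1 without MRL/lpr P pool 1 and 6 without NOD T pool 1. Affy initiation factors between strains under T had 7 without MRL/lpr T pool 1, 6 without MRL/lpr T pool 2 and 4 without MRL/lpr T pool 3. Affy synthetases with T in MRL/lpr had 5 without MRL/lpr P pool 2. Affy synthetases in the interaction had 1 without MRL/lpr P pool 2, 1 without MRL/lpr P pool 3, 1 without MRL/lpr T pool 3, 1 without NOD P pool 1, 1 without NOD P pool 2 and 4 without NOD T pool 1. Affy synthetases between strains under P had 1 without MRL/lpr P pool 1, 1 without MRL/lpr P pool 2, 1 without MRL/lpr T pool 1, 1 without MRL/lpr T pool 2, 1 without MRL/lpr T pool 3, 1 without NOD P pool 1, 1 without NOD P pool 2 and 5 without NOD T pool 1.

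On the deposited Affy signals the median of all sets moved to 1.52 between strains under T, 0.96 in the interaction, 0.62 in NOD and -0.26 in MRL/lpr, and called falls changed sign in 15 cases. Between strains under T the log2 differences became 1.08 for Eif2d 1436724_a_at, 1.15 for Eif2s2 1417712_at, 0.53 for Eif2s2 1448820_a_at, 0.89 for Eif2s2 1456617_a_at, 0.96 for Eif3e 1439268_x_at, 0.081 for Eif3m 1437189_x_at, 1.06 for Eif4a1 1434985_a_at, 1.02 for Eif4b 1426379_at, 0.95 for Eif4h 1438554_x_at, 0.87 for Eprs 1452158_at, 0.94 for Qars 1456213_x_at and 0.54 for Qars 1456726_x_at. The interaction of Eif2s2 1456617_a_at became 0.12, and the changes with T in NOD became 0.076 for Eif3a and 0.060 for Lars. Values relative to those medians stayed negative in each case.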
